A study of Sus scrofa with 27 samples.

Results

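The genes described here are regulators of the mitogen-activated protein kinase (MAPK) cascades that the deposited table lists by symbol: the phosphatases DUSP1, DUSP2, DUSP4, DUSP5, DUSP6 and DUSP10, the Sprouty genes SPRY2 and SPRY4, the kinase gene MAP2K3 and the RAS exchange factor gene SOS2. They were chosen by name, with earlier results of these data known. All 10 of 10 had at least 10 counts in 1 or more libraries, so none was dropped from the 31908 genes of the table. RNA-seq was done on lung biopsies of pigs whose lungs underwent ex vivo lung perfusion (EVLP), a procedure in which an excised lung is ventilated and perfused outside the body. Biopsies were taken at 0h, before perfusion began, and at 6h and 12h, from 5 pigs of the Gold Standard group (GS) and 4 pigs of the Pediatric Dialysis group (PD), 27 libraries in all. Both groups had cold ischemia followed by the Toronto protocol with Steen solution supplemented with methylprednisolone (a glucocorticoid), cefuroxime and heparin. In GS part of the perfusate was exchanged for fresh solution at intervals, whereas in PD a hemodialyzer was placed on the circuit. The comparisons ask how each gene changed from 0h in each group, and whether that change differed between the groups.

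MAPK cascades carry signals from receptors to the nucleus through ERK, p38 and JNK, which are switched on when both a threonine and a tyrosine are phosphorylated. Dual-specificity phosphatases remove both phosphates, and many of their genes are themselves induced by the kinases that they switch off. Sprouty proteins restrain the signal between receptor and ERK, and the glucocorticoid receptor is known to raise DUSP1 transcription.

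In the Sscrofa11.1 assembly, as given by the deposited table, DUSP1 lies at chr16:51458020-51461086, DUSP2 at chr3:47052457-47054816, DUSP4 at chr15:55490468-55509459, DUSP5 at chr14:120906343-120919395 and DUSP6 at chr5:93302975-93307504. DUSP10 is at chr10:10866448-10905857, SPRY2 at chr11:52153704-52160497, SPRY4 at chr2:143875353-143892292, MAP2K3 at chr12:61396331-61421579 and SOS2 at chr1:179907590-180015220. All are annotated as protein-coding, and the values are counts over each gene.

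The promoters of 3 phosphatase genes are shown, because the gene had the largest fitted difference in change between the groups at 6h (DUSP2 and DUSP5) or the highest level (DUSP1). Each is the 250 bases before the RefSeq gene start on the plus strand, in Sscrofa11.1, at chr16:51457674-51457923 for DUSP1, chr14:120906090-120906339 for DUSP5 and chr3:47052193-47052442 for DUSP2. Capitals mark a cAMP response element in DUSP1 and a pair of adjoining CArG boxes, the sequence bound by serum response factor, in DUSP5.
DUSP1: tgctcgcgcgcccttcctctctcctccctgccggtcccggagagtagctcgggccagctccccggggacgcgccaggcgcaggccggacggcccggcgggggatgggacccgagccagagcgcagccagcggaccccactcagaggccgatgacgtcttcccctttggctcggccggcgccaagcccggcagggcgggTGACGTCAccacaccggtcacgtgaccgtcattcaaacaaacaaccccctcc
DUSP5: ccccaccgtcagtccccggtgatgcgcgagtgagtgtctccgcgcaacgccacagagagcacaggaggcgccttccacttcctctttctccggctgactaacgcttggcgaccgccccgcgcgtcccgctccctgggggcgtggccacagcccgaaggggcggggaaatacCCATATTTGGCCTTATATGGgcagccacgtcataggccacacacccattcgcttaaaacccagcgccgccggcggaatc
DUSP2: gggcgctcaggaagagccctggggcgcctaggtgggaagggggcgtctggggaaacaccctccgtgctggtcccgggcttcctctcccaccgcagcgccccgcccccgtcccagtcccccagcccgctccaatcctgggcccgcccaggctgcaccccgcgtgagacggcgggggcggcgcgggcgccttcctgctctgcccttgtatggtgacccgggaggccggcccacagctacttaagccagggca

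The search covered both strands of windows from 250 bases before to 50 after the gene start, for 10 of 10 genes and 19556 promoters in all. The cAMP response element TGACGTCA was found once, in DUSP1, starting 52 bases before the gene start, and is present in 2.26% of all promoters. CArG boxes were found in DUSP5 alone among the genes described, starting 79 and 69 bases before the gene start, and 1.53% of promoters hold at least 1. The glucocorticoid response core ACANNNTGT was found in DUSP6, at 107 bases before the start (4.56% of promoters). None of the 10 windows held the AP-1 site TGANTCA (6.07%) or the ETS site CCGGAAGT (4.68%), and no marked match overlapped another. These are matches of letters only, and DUSP2 held none of those searched.

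Library totals were 26335584 to 67522703 counts in GS and 14650700 to 21820935 in PD, so no PD library reached the depth of a GS library. RNA was extracted from frozen or from RNAlater biopsies with different kits, and which library had which is not given in the sources used here, so group, depth and any batch of libraries cannot be told apart. The 12h library of PD pig 2 stood apart, with the fewest counts (14650700), 18979 genes detected and 1.65% mitochondrial counts. Lung markers were present in every library: the summed level of 6 of 7 alveolar type 2 markers was 5228 to 15763 CPM (counts scaled to the library's total) in GS and 15449 to 82268 in PD, and none of the markers measured was at 0. The 0h library of PD pig 4 also stood apart, with alveolar type 2 markers at 73894 CPM (other PD pigs at 0h 26099 to 45867). Its smooth muscle markers were at 486 CPM (others 1582 to 2065). Of the PD pigs at 0h it had the highest SOS2 and the lowest DUSP2, DUSP10, SPRY2 and SPRY4. Separate pigs are replicates, and each pig gives 1 library at each time. In bulk tissue, fewer cells of a type and less RNA per cell cannot be told apart.

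Levels are CPM after TMM scaling, listed for GS pigs 9, 17, 44, 55 and 77 and for PD pigs 2, 3, 4 and 5, in that order. A change was called where edgeR's quasi-likelihood test gave a Benjamini-Hochberg adjusted p under 0.05 over all genes and, for changes from 0h, a fold of at least 2. Folds and SE are on the log2 scale.

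Per kilobase of exon, the mean level at 0h in GS ran from 366.5 CPM for DUSP1 through 77.1 for DUSP6, 16.8 for SPRY2, 15.2 for DUSP5, 12.5 for DUSP2 and 8.59 for SPRY4 to 5.15 for MAP2K3, 4.90 for DUSP4, 2.49 for DUSP10 and 0.238 for SOS2. In PD the same quantity was 223.3 for DUSP1, 53.2 for DUSP6 and 0.755 for SOS2. In GS each neighbouring pair from SPRY2 to SPRY4 differed by less than the larger SD of the pair (2.65 for SPRY2, 5.27 for DUSP5, 4.94 for DUSP2 and 2.55 for SPRY4), as did MAP2K3 and DUSP4 (SD 1.20 and 0.787), so their order is not resolved, whereas DUSP1 and SOS2 stood clear at the ends.

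**Figure D1:**
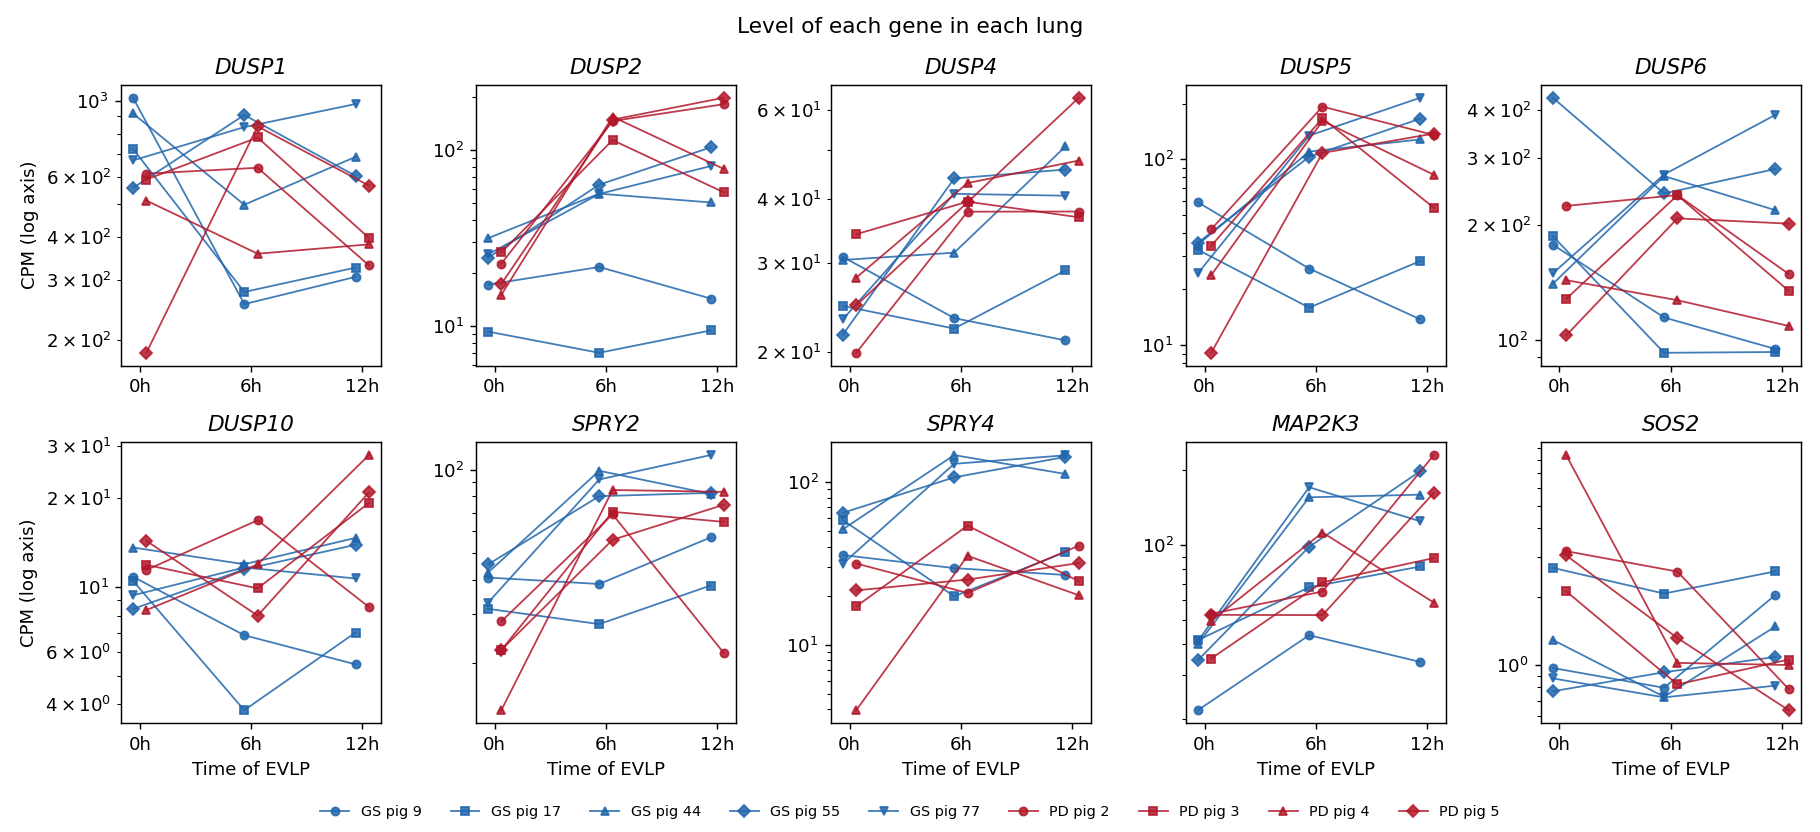
Level of each gene in each lung, in CPM on a log axis, at 0h, 6h and 12h of EVLP (blue, 5 GS pigs; red, 4 PD pigs; each line is 1 pig). DUSP2 was at 15.1 to 26.2 CPM in PD at 0h and at 114 to 155 CPM at 6h, whereas GS pigs were at 7.06 to 63.7 CPM at 6h.

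Among the phosphatases, DUSP2 rose in PD at both times and DUSP5 at 12h, and no phosphatase passed the test in GS. DUSP2 is an inducible nuclear phosphatase first known from activated lymphocytes, acting on ERK and p38. DUSP2 stood at 17.2, 9.32, 31.6, 24.5 and 25.6 CPM in GS at 0h, at 21.7, 7.06, 56.6, 63.7 and 56.4 at 6h, and at 14.4, 9.46, 50.5, 104 and 81.1 at 12h. For PD the DUSP2 levels were 22.7, 26.2, 15.1 and 17.4 CPM at 0h, 146, 114, 155 and 149 at 6h, and 182, 57.5, 78.1 and 199 at 12h. Every PD pig was higher at both later times than any PD pig at 0h, while GS pigs 9 and 17 stayed near their own 0h level and the values of the times overlapped.

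DUSP2 rose in PD by 2.76 (SE 0.43) at 6h, with edgeR adjusted p = 0.0360 and higher in 4 of 4 pigs. At 12h it was higher by 2.56 (SE 0.43, edgeR adjusted p = 0.0176, 4 of 4 pigs). In GS its change was 0.58 (SE 0.29, edgeR adjusted p = 0.153) at 6h and 0.76 (SE 0.30, adjusted p = 0.0571) at 12h, where it was called without GS pig 9 (1.07, adjusted p = 0.0176) or pig 17 (1.003, adjusted p = 0.0285) and the change ran from 0.45 (without pig 55) to 1.18 (with no replicate block) over 12 alternatives. The calls in PD are thin: at 6h the edgeR adjusted p was 0.186 without pig 3, 0.156 without pig 4 and 0.626 without pig 5, and at 12h it was 0.104 without pig 3, 0.254 without pig 5 and 0.110 with only the 2 times compared, while the change stayed between 2.22 and 3.02. Summed T cell markers (6 of 6 measured) were at 218 to 316 CPM in PD at 0h, 143 to 223 at 6h and 122 to 155 at 12h. Endothelium sums were 1139 to 1712 CPM at 0h, 1408 to 2773 at 6h and 1419 to 2090 at 12h, higher than at 0h in PD pigs 3, 4 and 5 at 6h and in 4 of 4 pigs at 12h. Neutrophil and monocyte sums (4 of 7 markers measured) were 616 to 1187, 232 to 1121 and 256 to 1384 CPM, lower than at 0h in pigs 3, 4 and 5 and higher in pig 2 at both later times, and alveolar type 2 sums moved in the same directions in each pig. The part of these markers in the PD changes of DUSP2 and the other genes was not tested.

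DUSP5, a nuclear phosphatase that acts on ERK, varied widely between GS pigs after 0h. DUSP5 stood at 58.8, 32.6, 34.7, 35.5 and 24.3 CPM in GS at 0h, at 25.8, 15.9, 110, 103 and 134 at 6h, and at 13.7, 28.4, 128, 166 and 215 at 12h. The PD levels of DUSP5 were 42.0, 34.2, 23.8 and 9.08 CPM at 0h, 192, 167, 161 and 108 at 6h, and 135, 54.9, 82.7 and 138 at 12h. In PD both later times lay wholly above 0h, whereas in GS pigs 44, 55 and 77 were above their 0h level at both later times and pigs 9 and 17 below it.

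The change of DUSP5 in PD was 2.57 (SE 0.47, edgeR adjusted p = 0.0667) at 6h, which was not called, and it rose by 2.04 (SE 0.47, edgeR adjusted p = 0.0332) at 12h. The 6h change was called in 6 of 12 alternatives, among them no replicate block (2.51, edgeR adjusted p = 0.0246) and DESeq2 (2.59, adjusted p = 9.25e-06), and its adjusted p reached 0.569 with a pig left out. The 12h call was lost without PD pig 3 (adjusted p = 0.173), pig 4 (0.0777) or pig 5 (0.292, with a change of 1.43), and with only the 2 times compared (1.99, adjusted p = 0.159). GS gave 0.37 (SE 0.60, edgeR adjusted p = 0.683) at 6h and 0.77 (SE 0.62, adjusted p = 0.342) at 12h, and at 12h the call appeared only without GS pig 9 among the pigs left out in turn (1.602, adjusted p = 0.0256), while without pig 77 the change was 0.25 at 12h and −0.038 at 6h.

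DUSP1, the phosphatase most active on p38 and JNK, was the most abundant of the genes per kilobase in every group. DUSP1 stood at 1021, 723, 919, 557 and 669 CPM in GS at 0h, at 254, 276, 497, 909 and 838 at 6h, and at 306, 325, 686, 603 and 978 at 12h. In PD it was at 612, 589, 511 and 183 CPM at 0h, 637, 781, 357 and 842 at 6h, and 330, 397, 380 and 565 at 12h. GS pigs 9, 17 and 44 were below their 0h level at both later times and pigs 55 and 77 above it, and times overlapped in both groups. No change from 0h was called: −0.75 (SE 0.33, edgeR adjusted p = 0.107) at 6h and −0.71 (adjusted p = 0.103) at 12h in GS, against 0.41 (adjusted p = 0.743) and −0.18 (adjusted p = 0.844) in PD. Without GS pig 55 the 6h change in GS was called, at −1.11 (edgeR adjusted p = 0.0312), whereas without pig 9 it was −0.35 at 6h and −0.32 at 12h. Without PD pig 5 the PD change was −0.033 at 6h and −0.61 at 12h.

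DUSP4, another nuclear phosphatase of ERK and JNK, was higher at both later times in every PD pig, by 0.21 to 0.92 at 6h and 0.11 to 1.36 at 12h. DUSP4 stood at 19.9, 34.1, 28.0 and 24.7 CPM in PD at 0h, 37.8, 39.6, 43.1 and 39.5 at 6h, and 37.8, 36.9, 47.7 and 63.4 at 12h. No PD value at 6h or 12h fell within the 0h range, yet the changes were not called: 0.57 (SE 0.31, edgeR adjusted p = 0.598) and 0.80 (SE 0.32, adjusted p = 0.147). In GS it was at 30.8, 24.6, 30.4, 21.6 and 23.2 CPM at 0h, 23.3, 22.2, 31.4, 43.97 and 41.0 at 6h, and 21.1, 29.0, 50.8, 45.8 and 40.7 at 12h. Those ranges overlapped, with changes of 0.21 (edgeR adjusted p = 0.489) and 0.37 (adjusted p = 0.188), which were 0.024 and 0.23 without pig 55 and 0.43 and 0.67 without pig 9.

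DUSP6, the cytoplasmic phosphatase selective for ERK, showed no called change. DUSP6 stood at 178, 187, 140, 431 and 150 CPM in GS at 0h, 115, 92.6, 269, 242 and 271 at 6h, and 94.7, 93.0, 219, 281 and 389 at 12h. PD pigs had 225, 128, 143 and 103 CPM of DUSP6 at 0h, 240, 239, 127 and 208 at 6h, and 149, 135, 109 and 202 at 12h. GS pig 55 was far above the other pigs at 0h, and all times overlapped in both groups. Fitted changes at 6h and 12h were −0.27 (SE 0.31) and −0.26 (SE 0.31) for GS, then 0.40 (SE 0.34) and −0.0039 (SE 0.34) for PD, with edgeR adjusted p of 0.534 or more. With a pig left out these ran from −0.54 to −0.027 and from −0.62 to −0.0082 for GS, both nearest 0 without pig 17, and from 0.22 (without pig 3) to 0.66 (without pig 4) for PD at 6h.

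DUSP10, which acts on p38 and JNK, was the least abundant phosphatase of the set. DUSP10 stood at 10.8, 10.5, 13.6, 8.42 and 9.37 CPM in GS at 0h, 6.86, 3.82, 11.9, 11.5 and 11.6 at 6h, and 5.47, 7.01, 14.7, 13.9 and 10.7 at 12h. PD gave 11.4, 11.9, 8.35 and 14.3 CPM at 0h, 16.8, 9.89, 11.9 and 7.99 at 6h, and 8.55, 19.3, 28.0 and 20.9 at 12h. At 12h PD pigs 3, 4 and 5 were above every 0h value and pig 2, whose library stood apart, was not. The PD change at 12h was 0.71 (SE 0.42, edgeR adjusted p = 0.320), and it was called, at 1.03 (adjusted p = 0.0465), when that 1 library was left out, an alternative chosen after seeing the data, while without pig 4 it was 0.41.

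Of the Sproutys, which act upstream of ERK, neither passed the test against 0h, although SPRY2 was higher in most pigs. SPRY2 stood at 40.7, 31.4, 42.4, 45.4 and 33.0 CPM in GS at 0h, 38.6, 27.6, 99.1, 80.2 and 92.2 at 6h, and 56.9, 38.1, 81.8, 82.4 and 113 at 12h. In PD the SPRY2 values were 28.3, 22.3, 13.5 and 22.3 CPM at 0h, 68.9, 70.4, 84.5 and 55.8 at 6h, and 21.7, 64.8, 83.2 and 74.7 at 12h. All PD pigs at 6h were above all at 0h, and at 12h only the library of pig 2 lay within the 0h range. In GS the 12h change was 0.76 (SE 0.22, edgeR adjusted p = 0.0169, higher in 5 of 5 pigs), under the fold of 2, and the 6h change was 0.60 (adjusted p = 0.0571). In PD it was 1.65 (SE 0.42, edgeR adjusted p = 0.187) at 6h and 1.44 (SE 0.43, adjusted p = 0.0700) at 12h, and DESeq2 called both.

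SPRY4, the other Sprouty gene, varied between pigs in both groups. SPRY4 stood at 35.5, 58.3, 51.2, 64.7 and 31.5 CPM in GS at 0h, 29.6, 19.8, 146, 107 and 129 at 6h, and 26.8, 37.1, 112, 143 and 146 at 12h. PD pigs were at 31.6, 17.2, 3.96 and 21.6 CPM at 0h, 20.8, 53.9, 35.2 and 25.1 at 6h, and 40.6, 24.6, 20.1 and 31.8 at 12h. GS pigs 9 and 17 were below their 0h level at both times and the other GS pigs above it. Its changes at 6h and 12h were 0.37 (SE 0.41) and 0.47 (SE 0.41) for GS, then 1.10 (SE 0.53) and 0.82 (SE 0.51) for PD, with edgeR adjusted p from 0.348 to 0.556. Leaving out a pig moved these values to between 0.043 (without pig 77) and 0.91 (without pig 17) for GS at 6h, 0.12 and 0.90 for GS at 12h with the same pigs, 0.53 (without pig 4) and 1.59 (without pig 2) for PD at 6h, and 0.54 and 0.98 for PD at 12h, with none called.

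MAP2K3, the kinase that phosphorylates p38, was the only gene of the set called in GS. MAP2K3 stood at 21.7, 41.5, 40.0, 34.5 and 41.2 CPM in GS at 0h, 43.5, 67.8, 156, 98.6 and 171 at 6h, and 34.0, 82.2, 160, 199 and 125 at 12h. Each GS pig was higher than its own 0h level at both times, and at 6h no value overlapped with 0h. It rose by 1.40 (SE 0.25, edgeR adjusted p = 0.00202) at 6h and 1.48 (SE 0.25, adjusted p = 0.000901) at 12h, and both calls were kept in each of the 12 alternatives (adjusted p up to 0.0266). PD pigs had 53.0, 35.1, 49.7 and 52.5 CPM at 0h, 65.2, 71.0, 113 and 52.4 at 6h, and 230, 88.8, 58.9 and 162 at 12h. The PD change was 0.67 (SE 0.44, edgeR adjusted p = 0.636) at 6h and 1.47 (SE 0.45, adjusted p = 0.0746) at 12h, where all 4 pigs were above every 0h value. Leaving out the 12h library of pig 2, the highest of these, gave 1.07 at 12h. Summed T cell markers in GS were at 226.5 to 390 CPM at 0h, 127.9 to 300 at 6h and 110 to 261 at 12h. They were below 0h in each GS pig at both times. Alveolar type 2 sums in GS were 6893 to 9796 CPM at 0h and 6910 to 15763 at 12h, higher in each pig. At 6h they were higher in pigs 17, 44 and 55 and lower in pigs 9 and 77. The part of these markers in the GS rise of MAP2K3 was not tested.

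SOS2, which loads RAS with GTP, had 8 to 155 counts in a library. Its counts are uncertain, because they are few and how reads shared between gene models were counted is not given in the sources used here. SOS2 stood at 3.18, 2.12, 8.40 and 3.04 CPM in PD at 0h, 2.58, 0.824, 1.03 and 1.32 at 6h, and 0.786, 1.06, 1.003 and 0.635 at 12h. In GS it was at 0.973, 2.68, 1.29, 0.769 and 0.877 CPM at 0h, 0.797, 2.07, 0.728, 0.933 and 0.723 at 6h, and 2.04, 2.59, 1.48, 1.09 and 0.814 at 12h. Every PD pig was lower at 6h and 12h than at 0h, with no overlap at 12h, whereas GS times overlapped. The PD change was −1.48 (SE 0.55, edgeR adjusted p = 0.432) at 6h and −2.10 (SE 0.56, adjusted p = 0.0510) at 12h, just short of the call (−0.89 at 6h without pig 4), and GS gave −0.33 (adjusted p = 0.349) and 0.24 (adjusted p = 0.458). With a pig left out the GS change ran from −0.48 (without pig 55) to −0.19 (without pig 44) at 6h. At 12h it ran from 0.10 (without pig 9) to 0.35 (without pig 77).

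**Figure D2:**
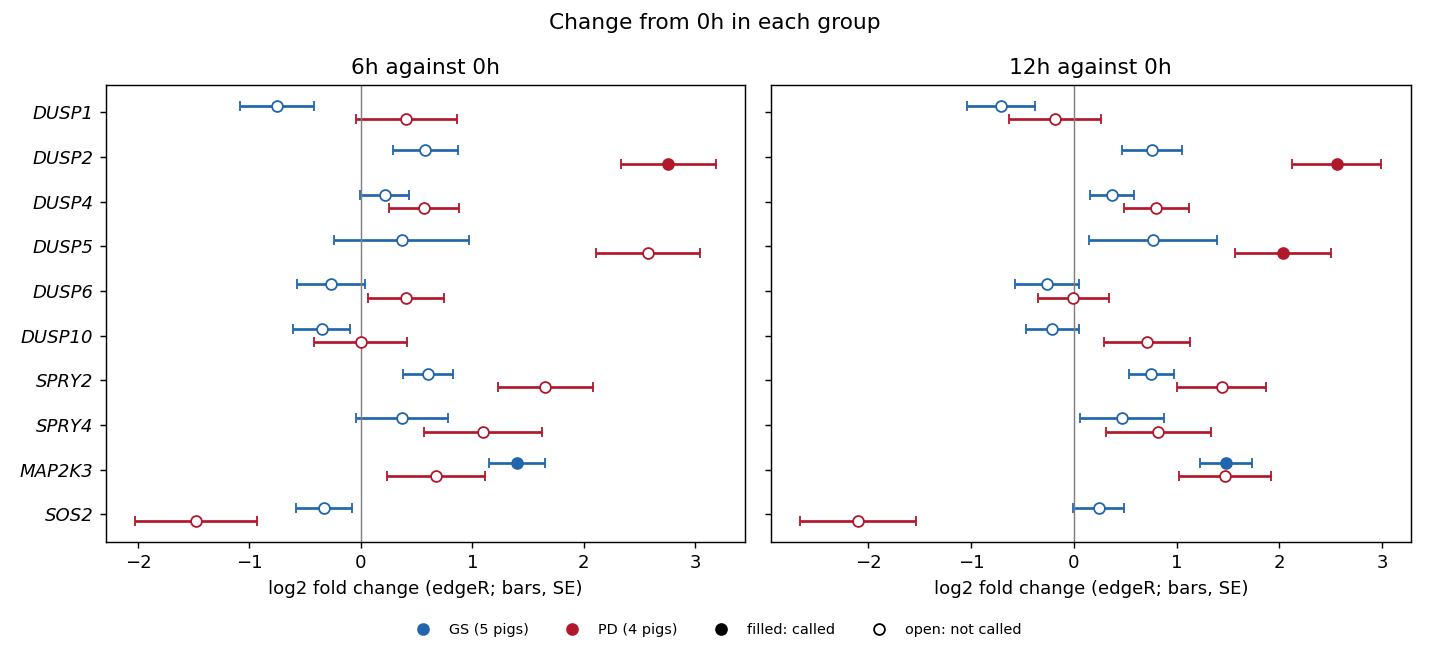
Change from 0h fitted by edgeR at 6h and 12h (log2 fold change, bars SE; blue, GS; red, PD; filled points were called). Filled points are MAP2K3 in GS at both times, DUSP2 in PD at both times and DUSP5 in PD at 12h.

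Read against all genes tested, 1 of 10 genes was called in GS at 6h where 11.1% of 18594 genes were, and 1 of 10 at 12h against 15.7%. In PD 1 of 10 was called at 6h against 0.142% of 15545 genes, and 2 of 10 at 12h against 5.98%. By the plainer measure of values that do not overlap between times, PD had 4 of 10 genes at 6h, all higher, where 10.9% of genes did not overlap in either direction and 6.13% were higher. At 12h PD had 5 of 10, 4 higher and SOS2 lower, against 18% of all genes (8.09% higher and 9.88% lower). GS had 1 of 10 at 6h against 10.9%, and 0 of 10 at 12h against 12.6%. The median change of the 10 genes at 6h was 0.29 for GS and 0.62 for PD, and at 12h 0.42 and 0.81, where the median over all genes tested lay between −0.08 and −0.02. The 6h and 12h changes share the same 0h libraries and are not independent. Because the genes were chosen with earlier results of these data known, the shares set beside all genes describe the set and do not test it.

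Pig by pig, GS pigs 44, 55 and 77 had 7, 9 and 9 of the 10 genes above their own 0h level at 6h and 9 each at 12h. Pig 9 had 2 and 3, and pig 17 had 1 and 4. The share of all 17884 genes above 0h was 46.7% to 52.5% in these GS pigs. PD pigs had 7 or 8 of 10 at 6h and 5 to 9 at 12h, the 5 in pig 2. In PD the share of all genes above 0h was 43.5% to 51.5%, lowest in the 12h library of pig 2, where the median change over all genes was −0.24. Pigs 9 and 17 also had the lowest totals in GS (26335584 to 41802541 counts, against 51708598 or more). Their summed markers at 6h were below those of the other GS pigs for macrophages (7 of 7 markers measured, 2983 and 2655 CPM against 5445 to 6601), endothelium (7 of 7, 1969 and 1504 against 2585 to 3274), smooth muscle (5 of 5, 1418 and 716 against 2405 to 3045) and T cells (6 of 6, 173 and 128 against 205 to 300.4). At 12h the sums of these pigs were still below those of the others for smooth muscle (1414 and 971 CPM against 2084 to 2686), endothelium (2052 and 2359 against 2656 to 3515) and T cells (169 and 110.1 against 217 to 261), while the macrophage sums of these pigs (4800 and 3338) overlapped those of the others (4069 to 5858). Alveolar type 2 sums of pigs 9 and 17 overlapped those of the others at 6h (5228 and 10193 CPM against 7345 to 12230). So did their neutrophil and monocyte sums (238 and 245 against 215 to 258), and both overlapped at 12h as well. Mitochondrial counts were 2.41% to 3.14% in the libraries of pig 17, against 5.74% or more in all other GS libraries, those of pig 9 included. The part of depth, of the mitochondrial share and of these markers in the counts was not tested.

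Between 6h and 12h the edgeR fit within each group called none of the 10 genes and none of the other genes tested (0%). At an unadjusted p under 0.05 there was 1 of 10 in GS (SOS2, 0.57, higher in 5 of 5 pigs) against 4.74% of genes, and 0 of 10 in PD against 10% of genes. DESeq2 called 0 of the 10 in both groups, against 2 of 18594 genes in GS and 221 of 15545 in PD. With all libraries in one fit edgeR called 492 of 17884 genes in PD, where 0 of the 10 had an unadjusted p under 0.05.

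The change from 0h was then compared between PD and GS in 1 model with the group by time term. None of the 10 genes, and none of 17884 genes (0%), passed at 6h or at 12h by edgeR with all pigs. Without PD pig 2 edgeR called 254 of 18568 genes at 6h, none of them among the 10. At 6h, 4 of 10 had an unadjusted p under 0.05 against 5.85% of all genes. DESeq2 called 0 of the 10 and 7 of 17884 genes. The exact Wilcoxon test could call no gene, because its smallest p, 0.0159, cannot pass the correction over all genes. The difference (PD minus GS) was 2.18 (SE 0.51, edgeR adjusted p = 0.783) for DUSP2, 2.21 (SE 0.82) for DUSP5, 1.03 (SE 0.46) for SPRY2 and −1.16 (SE 0.54) for SOS2, all at the same adjusted p. Without PD pig 4 the SOS2 difference was −0.61, and with no replicate block that of DUSP5 was 1.46. DUSP2 was the 1 gene of 10 whose pig values did not overlap, against 3.04% of all genes: its change was 2.12 to 3.36 in the PD pigs and −0.40 to 1.38 in the GS pigs.

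At 12h, 2 of 10 had an unadjusted p under 0.05, against 5.98% of all genes. DUSP2 differed by 1.78 (SE 0.52, edgeR adjusted p = 0.650) and SOS2 by −2.37 (SE 0.54, adjusted p = 0.492). SOS2 was the 1 gene without overlap (2.19% of all genes), at −3.05 to −0.99 in PD and −0.10 to 1.06 in GS. DESeq2 called SOS2 (adjusted p = 0.0167), 1 of 15 genes called among 17884. Without PD pig 2 edgeR called SOS2 too (−2.43, adjusted p = 0.0496), with 153 of 18568 genes called. The exact Wilcoxon test could call no gene at this time either. For DUSP1 the difference was 1.147 (SE 0.57) at 6h and 0.51 (SE 0.56) at 12h, and for MAP2K3 −0.73 (SE 0.49) and −0.04 (SE 0.50), none of them called. Without PD pig 5 the DUSP1 difference was 0.70 and 0.11.

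**Figure D3:**
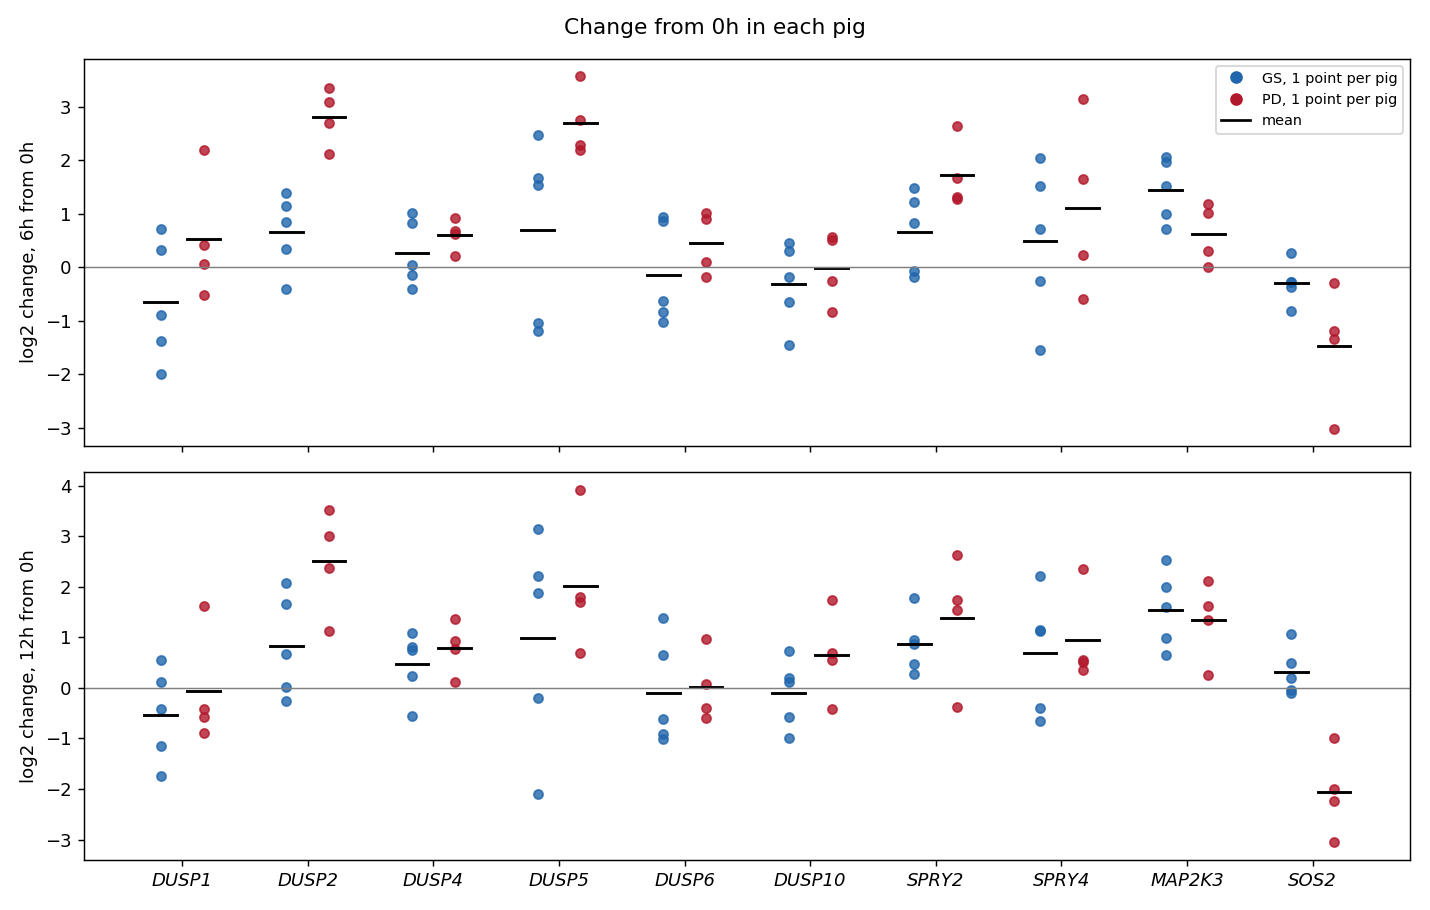
Change from 0h in each pig (log2 of the TMM-scaled level) at 6h, top, and 12h, bottom (1 point per pig; blue, GS; red, PD; black line, mean). DUSP2 at 6h and SOS2 at 12h are the genes whose PD and GS points do not overlap, and the GS points of DUSP5 span −1.19 to 2.46 at 6h.

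At 0h, before perfusion, 3 of 10 genes differed between the groups (edgeR, no fold threshold), where 40.6% of 16477 genes did (21.3% higher and 19.3% lower in PD). SPRY2 was lower in PD (−0.76, SE 0.23, edgeR adjusted p = 0.0179) and was the 1 gene of 10 without overlap (34.1% of all genes), and it lost its call in 1 of 13 alternatives, the one that asks for a fold of 2. SPRY4 was also lower (−1.31, SE 0.44, edgeR adjusted p = 0.0333), and SOS2 higher, by 1.77 (SE 0.51, adjusted p = 0.0155). SPRY4 lost its call without GS pig 17, 44 or 55 or PD pig 3 or 5 (adjusted p 0.0520 to 0.0708), and SOS2 without PD pig 4, its highest library (1.146, adjusted p = 0.0526). DUSP2 was level between the groups (−0.0018, SE 0.31). Summed alveolar type 2 markers were at 6893 to 9796 CPM in GS and 26099 to 73894 in PD at 0h. Endothelium markers were at 1970 to 2831 CPM in GS and 1139 to 1712 in PD, macrophage markers at 3256 to 6289 and 2067 to 2812, and neutrophil and monocyte markers (4 of 7 measured) at 148 to 432 and 616 to 1187. None of these sums overlapped between the groups, and their part in these differences was not tested. Since the 0h libraries are the base of each change, the lower SPRY2 and SPRY4 and higher SOS2 in PD at 0h enter the PD changes given above.

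Other genes of the pathway were counted in 7 lists. In GS 7 of 97 rose and 10 fell at 6h, and 6 rose and 10 fell at 12h, which is 17.5% and 16.5% of the listed genes against 11.1% and 15.7% of all genes. In PD 0 of 95 were called by edgeR at 6h (10 had an unadjusted p under 0.05, against 9.41% of all genes), and 5 rose and 2 fell at 12h, 7.37% against 5.98% of all genes. At 0h 10 were higher and 28 lower in PD than in GS, 39.2% of 97, where 21.3% of all genes were higher and 19.3% lower.

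Among the transcripts that ERK induces, FOSL1, an AP-1 subunit, rose by 4.66 at 6h and 5.22 at 12h in GS (SE 0.73 and 0.75, edgeR adjusted p = 0.00103 and 0.000382). In PD it was higher by 3.63 at 12h (SE 0.60, adjusted p = 0.0176). EGR1, an immediate early factor, changed by −3.66 at 6h and −3.71 at 12h in GS (SE 0.977 and 0.996). The PD change of EGR1 was 1.98 (SE 1.04) at 6h and −1.23 (SE 0.91) at 12h, neither of them called. Of 12 in this list, 2 rose and 2 fell at 6h in GS, and 2 rose and 3 fell at 12h. The PD count at 12h was 2 rising and 0 falling. Over all genes tested, 5.5% rose and 5.56% fell at 6h in GS, 6.99% and 8.66% at 12h in GS, and 3.22% and 2.76% at 12h in PD. For the difference between PD and GS, 0 of the 12 were called at either time. At an unadjusted edgeR p under 0.05 there were 5 of 12 at 6h and 2 of 12 at 12h, against 5.85% and 5.98% of all genes.

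MAP3K8, a kinase upstream of ERK, was the only one of 9 ERK cascade kinases called against 0h, rising by 1.61 and 1.58 in GS and by 1.89 in PD at 12h (edgeR adjusted p = 0.0304). The share of all genes called was 11.1% at 6h and 15.7% at 12h in GS, and 5.98% at 12h in PD. In the p38 and JNK list, 1 of 19 rose and 1 fell at each time in GS, where 11.1% and 15.7% of all genes were called. MAPKAPK2, a kinase activated by p38, rose by 1.07 at 6h and 1.21 at 12h. MAP2K6, the other main kinase of p38 beside MAP2K3, fell by 1.29 and 1.43. None of the 19 was called in PD at 12h, where 5.98% of all genes were. There MAPKAPK2 changed by 1.37 (edgeR adjusted p = 0.0541) and MAP2K6 by −1.53 (adjusted p = 0.0642), in the GS directions and just short of the call. Their changes in PD at 6h were 0.67 and −0.25.

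Of 16 other dual-specificity and MAPK phosphatases, 1 rose and 2 fell in GS at 6h, where 5.5% of all genes rose and 5.56% fell, with DUSP8 at 1.23 and DUSP19 at −1.69. At 12h 0 rose and 3 fell there (6.99% and 8.66% of all genes), and DUSP19 fell in PD as well, by 3.00 (SE 0.50, edgeR adjusted p = 0.0176). In the Sprouty, Spred and adaptor list, ERRFI1, an inhibitor of the EGF receptor, rose by 1.53 and 1.71 in GS, and SPRY1 fell by 1.28 at 6h. The PD changes of ERRFI1 were 2.22 (edgeR adjusted p = 0.275) and 2.16 (adjusted p = 0.0843), not called, and that of SPRY1 at 6h was 0.07. GAB2, a docking protein, rose by 1.55 in PD at 12h. Of 20 RAS genes and regulators, 4 fell at 6h and 3 at 12h in GS, where 5.56% and 8.66% of all genes fell, with RASAL3 at −1.18 and RASGRF2 at −1.34, and RASGRP2 fell by 1.81 in PD at 12h. The PD change of RASAL3 at 6h was −1.62 and that of RASGRF2 at 12h was −0.995, neither of them called. The 7 genes of the ERK5 arm had 0 called by edgeR in either group against 0h, with 1 at an unadjusted p under 0.05 at each time in GS, 0 in PD at 6h and 2 at 12h, where 41.2% and 48.5% of all genes in GS and 9.41% and 24.5% in PD had such a p at 6h and 12h.

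At 0h, 9 of 16 in the Sprouty, Spred and adaptor list were lower in PD and 0 higher, where 19.3% of all genes were lower and 21.3% higher, with SPRED3 at −2.36 (SE 0.77, edgeR adjusted p = 0.0279). KSR1 (−1.44), MAP3K3 (−2.15) and PHLDA1 (−4.06) were the largest lower values of their lists. DUSP19 (2.05), NRAS (0.87), MAP2K2 (0.61) and MAPK11 (1.72) were the largest higher ones.

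The genes whose profiles over the 27 libraries lay nearest, by root mean square difference of log2 CPM centred on each pig among 13776 candidates, were taken for 4 of the 10 genes. For MAP2K3 they were MAPKAPK2 (0.203) and DOT1L (0.233), and for DUSP1 ZFP36L1 (0.320) and NR4A2 (0.339). DUSP6 lay nearest to MTSS2 (0.286), and SPRY4 to TGFB3 (0.334) and MFGE8 (0.383).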

How the data were processed

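The values are the counts per gene that the authors deposited, as whole numbers for 31908 Ensembl genes of Sscrofa11.1 in 27 libraries. Per the labels, the submitters' processing notes name bcl2fastq 2.2.18.12, cutadapt 1.15, TopHat2 2.0.14, featureCounts, Subread 1.6.0 and DESeq2 1.18.1. The libraries were made with a stranded kit, and the strand and multi-mapping settings used in counting are not given in the sources used here. Groups, times and pigs were read from the sample labels.

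Low counts were removed with filterByExpr and libraries scaled by TMM. The robust two-sided quasi-likelihood test of edgeR 4.0.16 (with limma 3.58.1, under R 4.3.3) was run within each group with the pig as a block. The difference between groups used all libraries, and 0h used the 9 libraries of that time. Log2 levels used a prior count of 0.5. Because libraries of 1 number come from 1 pig, the labels pair them: residual profiles of the same pig had a mean correlation of 0.502 in GS and 0.137 in PD, against −0.113 and −0.0407 between pigs. Alternatives were no replicate block, DESeq2 1.42.0 or its size factors, no filter, no fold threshold, only the 2 times compared, all libraries together, an exact Wilcoxon test and each pig left out. Leaving out the 12h library of PD pig 2 was added after seeing the data. The scripts were tested on simulated data. The smallest p of the exact Wilcoxon test, 0.0159, cannot pass a correction over all genes.

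Genes named are all 10 chosen genes, from each pathway list the called gene with the largest change in each direction in a comparison, and the 2 nearest profiles for DUSP1, DUSP6, SPRY4 and MAP2K3. Some genes that this rule names are not reported here. The genes and lists were chosen with earlier results of these data known. Promoters come from the RefSeq annotation of Sscrofa11.1. A floor of 3 counts corresponds to at most 0.295 CPM in a library.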

Additional observations from a re-analysis of the deposited data

Results flagged for a closer look

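In 100 groups of 4 or 5 values, 6 had 1 sample far from the others, where chance gives about 1 in 20, or 5. At 0h, DUSP1 in PD pig 5 was at 7.52 log2 CPM, below the other PD pigs at 8.997 to 9.26. DUSP6 in GS pig 55 was at 8.75 at 0h, above the others at 7.13 to 7.55. MAP2K3 at 0h was lowest in GS pig 9 (4.44, others 5.11 to 5.38) and in PD pig 3 (5.13, others 5.63 to 5.73). SOS2 in GS pig 17 at 6h was at 1.06, others −0.44 to −0.08. The log2 change of SPRY4 at 12h was 2.34 in PD pig 4, others 0.36 to 0.56, and that pig had the lowest SPRY4 level at 0h (3.96 CPM).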

How the results depend on the processing

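Of 910 values of single genes under alternatives, 828 kept direction and side of the threshold, 17 were no longer called, 33 became called and 32 changed sign, each of the latter uncalled. The number of genes called in GS ranged over 1 to 2 at 6h and 1 to 3 at 12h with a pig left out, and was 2 at 12h with no fold threshold. In PD at 6h (1 called) it was 2 with no replicate block or no filter, 3 with DESeq2, only the 2 times compared, all libraries in one fit or without the 12h library of pig 2, and 0 to 2 with a pig left out, those beside DUSP2 being DUSP5 and SPRY2. In PD at 12h (2 called) it was 5 with no replicate block, DESeq2, all libraries in one fit or without that library, 0 with only the 2 times compared, and 0 to 4 with a pig left out. Those 5 were DUSP2, DUSP5, SPRY2, MAP2K3 and SOS2, with DUSP10 in place of MAP2K3 without that library. For the difference at 12h it was 1 with DESeq2 and 0 to 1 with a pig left out. The cause was not tested. The replicate block changed no other count of the 10 genes by over 1.5 times. Over all genes, dropping it took the called number in GS from 2057 down to 1123 (6h) and from 2911 down to 1896 (12h), and in PD from 22 up to 100 (6h) and from 930 up to 1460 (12h). All libraries in one fit gave 1219 in GS at 6h, and leaving out a pig gave 1318 (pig 44) to 2148. In PD the number at 6h was 428 with DESeq2, 103 with no filter, 139 with only the 2 times, 479 with all libraries, 252 without the 12h library of pig 2 and 0 to 98 with a pig left out. At 12h it was 2560 with DESeq2, 4 with only the 2 times, 3300 with all libraries, 4161 without that library and 0 to 3826 with a pig left out. With no fold threshold GS had 5295 and 7136.

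The sign changes were as follows. For DUSP10 in PD at 6h, values were 0.0012 with no replicate block, 0.014 with DESeq2, 0.014 with its size factors and 0.039 with no filter, and −0.27 to 0.25 with a pig left out. DUSP6 in PD at 12h gave 0.0026 with no replicate block, 0.042 with DESeq2, 0.042 with its size factors, 0.032 with no filter, 0.018 with only the 2 times, 0.0045 with all libraries, 0.094 without the 12h library of pig 2, and −0.31 to 0.20 with a pig left out. The SPRY4 difference at 12h was −0.21 with no replicate block.
With a pig left out, the ranges were −0.038 to 1.05 for DUSP5 (GS 6h), −0.41 to 0.041 for DUSP10 (GS 12h), −0.033 to 0.76 for DUSP1 (PD 6h), −0.61 to 0.015 for DUSP1 (PD 12h), −0.069 to 0.68 for SPRY4 (difference at 12h), −0.36 to 0.26 for MAP2K3 (difference at 12h), −0.049 to 0.59 for DUSP6 (difference at 12h), −0.22 to 0.14 for DUSP2 (0h comparison) and −0.022 to 0.24 for DUSP4 (0h comparison).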
